A study of Mus musculus with 21 samples.

Results

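The genes described here are 8 members of the leukaemia inhibitory factor (LIF) receptor and STAT3 pathway: Lifr, Il6st, Jak1, Stat3, Socs3, Pim1, Pim3 and Gbx2. They were taken by gene symbol from the array's probe annotation, which gives them 16 of the 45281 probes, and all 8 genes had a probe among the 11649 genes tested. LIF binds a receptor made of LIFR and gp130 (encoded by Il6st), whose bound Janus kinases, JAK1 foremost, phosphorylate STAT3. STAT3 then enters the nucleus and turns on targets that include its own gene, the feedback inhibitor Socs3, the kinase genes Pim1 and Pim3 and, in mouse embryonic stem cells, the homeobox gene Gbx2. In mouse embryonic stem cells this pathway is known for sustaining naive self-renewal, and LIF is among the cytokines given to make primordial germ cell-like cells (PGCLC).

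RNA was measured on single-colour bead arrays in 21 samples of mouse cells, 3 in each of 7 groups. Epiblast-like cells (EpiLC) had been grown from naive stem cells for 2 days in N2B27 with Activin A, FGF2 and 1% KSR, and PGCLC were the SSEA1+ CD61+ cells sorted after 6 days from aggregates of EpiLC in GK15 medium with BMP4, LIF, BMP8a, SCF and EGF. The 7 groups were PGCLC and EpiLC of the Otx2/Blimp1-null line (Otx2 GFP/lacZ with Blimp1-/-), PGCLC, no-cytokine day-6 cells and EpiLC of the Otx2-null line (Otx2 GFP/lacZ), and PGCLC and EpiLC of wild-type (WT) E14Tg2a. The no-cytokine cells came from Otx2-null aggregates in GK15 alone, sorted with the same markers, and no WT or Otx2/Blimp1-null counterpart was analysed here. Each genotype was 1 cell line, so genotype and line cannot be told apart. The labels do not say whether replicates were separate cultures, so p-values measure only the spread between these samples, and 3 arrays per group limit the precision. The cytokine groups differ in 5 factors at once, so an effect of LIF cannot be told apart from one of the other factors.

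Values are log2 signals after background correction and quantile normalization, and each probe is compared only with itself across samples. A gene counted as detected on an array where the authors' detection p was under 0.05, and a difference as past the test where the adjusted p of limma over all genes was under 0.05. Detected probes made up 31.1% to 43.2% of an array. The summed linear signal of 6 germ cell markers was 3440 to 4297 in Otx2/Blimp1-null PGCLC, 10530 to 12760 in Otx2-null PGCLC, 17830 to 21470 in no-cytokine cells and 19290 to 23400 in WT PGCLC, with all 6 markers detected on every one of these arrays, against 773 to 1874 in EpiLC. Of the genes of the sorted surface markers, Fut4 and Itgb3, the summed signal was 52.3 to 78.1 in the day-6 groups and 51.8 to 74.7 in EpiLC, near background. WT PGCLC carried the highest sums of mesoderm markers, 496 to 548 against 152 to 180 in the other day-6 groups, and of trophoblast markers, 1491 to 2576 against 212.5 to 378. Cdx2 and Gata6, at means of 7.98 and 7.18, made up most of the mesoderm sum in WT PGCLC. Mixl1, Mesp1 and Hand1 were detected on no array, and Eomes was higher in no-cytokine cells (5.48) than in WT PGCLC (4.97). The trophoblast sum was mostly Krt8 (10.32). Krt18 and Gata3 were also highest in WT PGCLC among day-6 groups, but Tead4 was higher in Otx2-null PGCLC (7.65 against 7.19). The Otx2 probe was detected on all 21 arrays, with a mean of 9.62 in Otx2-null PGCLC and 7.63 in WT PGCLC. The probe of the Blimp1 gene Prdm1 with any detection was detected on 2 arrays, both of no-cytokine cells. Where these probes lie relative to the targeted alleles is not given in the sources used here, so neither checks the genotype labels.

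The promoters of the 4 genes that were higher with cytokines are shown because STAT3 binds DNA at TTCNNNGAA, a motif that is its own reverse complement. Each runs from 250 bases before to 50 bases after the gene's start in RefSeq on GRCm38.p6, all on the minus strand, at chr11:117969317-117969616 for Socs3, chr11:100939491-100939790 for Stat3, chr1:89931127-89931426 for Gbx2 and chr4:101265174-101265473 for Jak1. Capitals mark a match to the motif.
Socs3: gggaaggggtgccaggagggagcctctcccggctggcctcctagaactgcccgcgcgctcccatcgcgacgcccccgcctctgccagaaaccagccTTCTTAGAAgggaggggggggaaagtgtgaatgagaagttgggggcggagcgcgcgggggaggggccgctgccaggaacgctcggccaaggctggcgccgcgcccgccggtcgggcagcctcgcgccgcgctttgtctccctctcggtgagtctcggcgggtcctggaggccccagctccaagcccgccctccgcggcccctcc
Stat3: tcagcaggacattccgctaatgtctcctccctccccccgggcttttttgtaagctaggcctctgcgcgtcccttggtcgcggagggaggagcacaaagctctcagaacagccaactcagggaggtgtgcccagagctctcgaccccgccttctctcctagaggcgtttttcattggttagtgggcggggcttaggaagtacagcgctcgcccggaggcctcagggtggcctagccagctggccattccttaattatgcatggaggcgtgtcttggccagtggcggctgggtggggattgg
Gbx2: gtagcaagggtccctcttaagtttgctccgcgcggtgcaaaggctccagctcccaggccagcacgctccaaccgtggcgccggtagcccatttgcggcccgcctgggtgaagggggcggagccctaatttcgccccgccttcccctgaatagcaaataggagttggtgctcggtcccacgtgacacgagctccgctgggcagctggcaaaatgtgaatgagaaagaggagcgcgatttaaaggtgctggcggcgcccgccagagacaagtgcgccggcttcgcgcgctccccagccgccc
Jak1: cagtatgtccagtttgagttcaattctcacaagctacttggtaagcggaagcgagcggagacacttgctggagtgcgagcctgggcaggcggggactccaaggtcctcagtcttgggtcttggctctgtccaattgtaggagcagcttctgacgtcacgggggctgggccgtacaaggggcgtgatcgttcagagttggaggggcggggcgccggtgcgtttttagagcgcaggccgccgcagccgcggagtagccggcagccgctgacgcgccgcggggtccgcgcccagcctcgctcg
The search found TTCTTAGAA in the Socs3 window, at position -154 relative to the gene's start. All 8 genes matched the RefSeq table, with 10 windows, and 1 of these windows held the motif, against 8.3% of the 32851 promoter windows in the table. A match is only a match of letters, and windows without one say nothing of STAT3 binding.

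The comparison that bears most directly on the pathway set Otx2-null day-6 cells grown with cytokines against those grown without. By the brightest probe of each gene, Socs3, Gbx2, Stat3 and Jak1 were higher with cytokines, and neither receptor gene nor either Pim kinase gene passed the test. Another kept probe of Pim1 was lower with cytokines (-0.83, limma adjusted p = 0.00238). By brightest probes 4 of 8 genes were thus higher, against 8.38% of all genes, and 0 lower by limma (0 also at an unadjusted p under 0.05), against 7.37%. In either direction 15.7% of all genes passed the test. The median difference of the 8 genes was 0.54 on the log2 scale and that of all genes -0.012. In 5 of 8 genes the replicates of the groups did not overlap, against 34.5% of all genes. The 8 genes were chosen with earlier results of these data known. These counts and medians therefore describe them and show no difference from all genes. In bulk RNA, fewer expressing cells and less RNA per cell cannot be told apart. The summed signal of 6 naive stem cell markers was 31920 to 34420 with cytokines and 28080 to 30270 without, while germ cell marker sums were lower with cytokines (above). Of the naive markers 2 of 6 passed the test as higher with cytokines and 4 did not pass. Klf4 and Tfcp2l1 among them are also targets in the list of other pathway genes below. The part of naive or germ cell marker differences in these results was not tested.

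**Figure D1:**
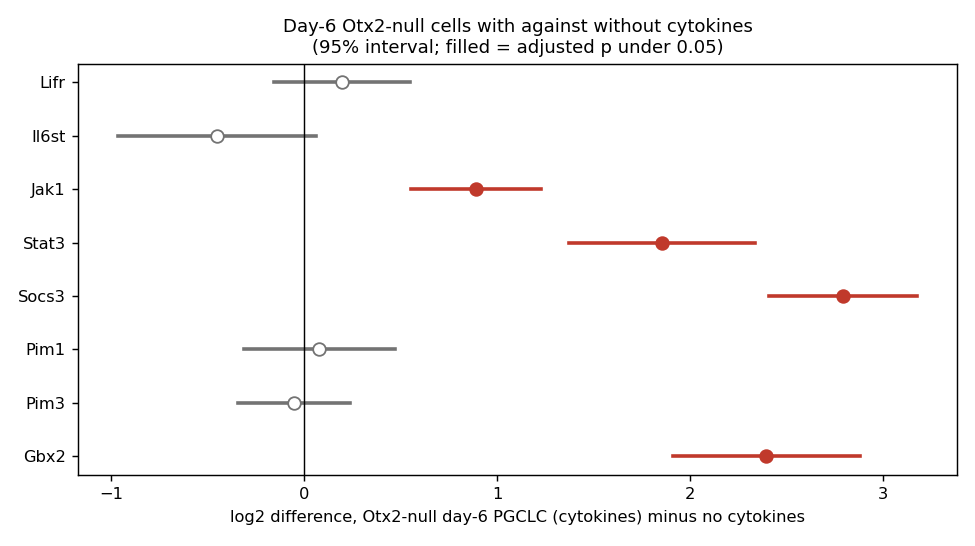
Log2 difference in signal (horizontal axis) of the 8 genes, Otx2-null PGCLC with cytokines minus no-cytokine cells (3 arrays each). Points are estimates, lines their 95% intervals, and filled points passed the test; Socs3, at 2.79, lies farthest to the right, and the intervals of Lifr, Il6st, Pim1 and Pim3 cross 0.

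Lifr encodes the LIF-binding chain of the receptor. Of its 3 probes, 2 were detected on no array and the third on 8 of 21, with log2 signals between 4.62 and 5.35 over all samples. The order of the group means was Otx2-null PGCLC at 5.05, WT EpiLC at 5.02, WT PGCLC at 4.98, Otx2/Blimp1-null EpiLC at 4.97, Otx2/Blimp1-null PGCLC at 4.96, Otx2-null EpiLC at 4.91 and no-cytokine cells at 4.86, and every neighbouring pair in it overlapped. With cytokines its log2 signals were 5.06, 5.11 and 5.00, against 4.96, 4.88 and 4.73 without, where 1 of 3 arrays detected it. These samples did not overlap, yet the difference of 0.20 had an interval of -0.16 to 0.55 and did not pass the test (limma adjusted p = 0.544). Lifr passed the test in none of the 13 comparisons made, by limma, with 0 at an unadjusted p under 0.05, and its signal near background limits what could be seen.

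Il6st encodes gp130, the signalling chain shared by the receptors of LIF, interleukin-6 and related cytokines. One of its 2 probes was detected on no array, the other on 17. Its log2 signal was 6.06, 6.14 and 6.46 in Otx2/Blimp1-null PGCLC and 5.06, 5.72 and 5.29 in EpiLC of that line. It was 6.64, 6.32 and 6.41 in Otx2-null PGCLC, 7.34, 6.56 and 6.83 in no-cytokine cells and 5.68, 5.46 and 4.90 in Otx2-null EpiLC. In WT it was 6.94, 6.54 and 7.35 in PGCLC and 5.53, 4.73 and 4.98 in EpiLC. Every day-6 sample lay above every EpiLC sample, where 5 of 9 arrays detected the gene.

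Il6st was higher in all 4 day-6 groups than in EpiLC of the same line. The difference from EpiLC was 0.86 ± 0.25 in Otx2/Blimp1-null PGCLC (SE, adjusted p = 0.00637), 1.11 ± 0.25 in Otx2-null PGCLC (adjusted p = 0.000399), 1.56 ± 0.25 in no-cytokine cells (adjusted p = 6.51e-06) and 1.87 ± 0.25 in WT PGCLC (adjusted p = 6.08e-07). The Otx2-null values share their EpiLC samples. All 4 calls were lost in the authors' normalized table, with differences of 0.053 to 0.76. Among day-6 cells Il6st was lower in Otx2/Blimp1-null than in WT PGCLC, by 0.72 ± 0.25 on the log2 scale (adjusted p = 0.0155), a call that was lost without WT PGCLC replicate 3 or Otx2/Blimp1-null PGCLC replicate 1, in the authors' normalized table (-0.70, adjusted p = 0.114) and with array weights (-0.49, adjusted p = 0.0533). Between cells with and without cytokines the groups overlapped, and the difference of -0.45 had an interval of -0.96 to 0.06 (adjusted p = 0.261).

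**Figure D2:**
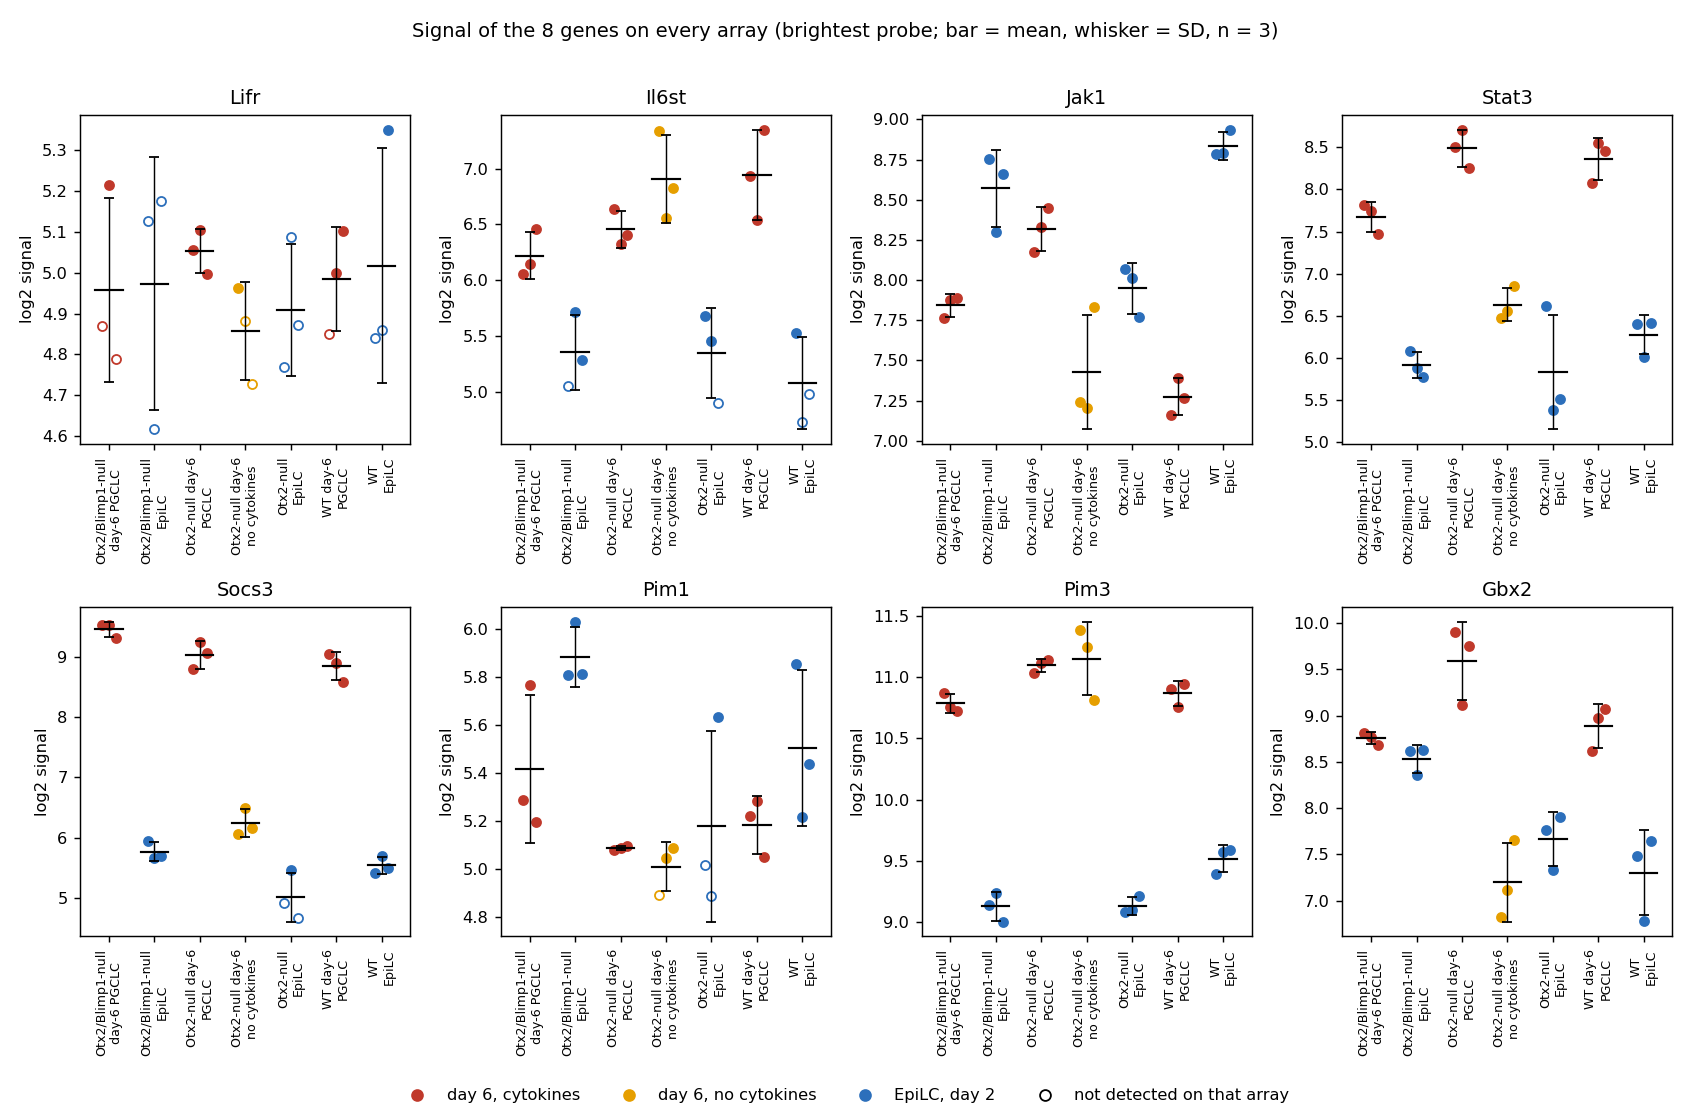
Log2 signal (vertical axis, its range set per gene) of each of the 8 genes on all 21 arrays, by group. Points are arrays, open where the gene was not detected, bars group means and whiskers the SD (n = 3); Socs3 and Stat3 are high in the 3 PGCLC groups, Pim3 in all 4 day-6 groups, and Jak1 is highest in WT EpiLC.

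Jak1 encodes the Janus kinase that gp130 receptors depend on most. Its signal comes from 1 probe detected on every array, since another was detected on no array and the third on 1. Its log2 signal was 7.76, 7.88 and 7.89 in Otx2/Blimp1-null PGCLC and 8.75, 8.30 and 8.66 in EpiLC of that line. In the Otx2-null line it was 8.18, 8.33 and 8.45 in PGCLC, 7.24, 7.21 and 7.83 in no-cytokine cells and 8.07, 8.01 and 7.77 in EpiLC. In WT it was 7.16, 7.39 and 7.27 in PGCLC and 8.78, 8.79 and 8.94 in EpiLC. WT EpiLC thus stood above and WT PGCLC below most other samples, whereas Otx2-null PGCLC stood above the EpiLC of their own line.

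With cytokines Jak1 was 1.86-fold higher than without, a log2 difference of 0.89 ± 0.16 (SE, limma adjusted p = 0.000393), with no overlap. Its change from EpiLC to day 6 differed between lines, and in the fit reported only falls passed the test. In WT PGCLC it was 2.95-fold lower than in EpiLC (log2 difference -1.56 ± 0.16, adjusted p = 1.53e-08), and in Otx2/Blimp1-null PGCLC it was lower by 0.73 ± 0.16 (adjusted p = 0.000836). In Otx2-null PGCLC the difference from EpiLC was 0.37 with an interval of 0.03 to 0.71, just outside the threshold (adjusted p = 0.0507). It passed under 5 of the alternatives. Among them was median scaling in place of the quantile step here, on intensities the authors had already equalized (0.74, or 0.53 relative to the shift of the median of all genes, adjusted p = 0.000516). No-cytokine cells were lower than the same EpiLC by 0.52 ± 0.16 (adjusted p = 0.00707), a call lost under median scaling (-0.15, or -0.36 relative to the same shift, adjusted p = 0.465) and without no-cytokine replicate 2 (-0.41, adjusted p = 0.0506). The change to PGCLC was more positive in Otx2-null cells than in WT by 1.93 ± 0.23 (adjusted p = 2.98e-06). It was less positive in Otx2/Blimp1-null than in Otx2-null cells by 1.10 ± 0.23 (adjusted p = 0.000419). Both are tests of the difference itself.

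Jak1 also differed between lines at matched stages. Among PGCLC it was higher in Otx2-null than in WT cells by 1.05 ± 0.16 (adjusted p = 5.21e-05), higher in Otx2/Blimp1-null than in WT cells by 0.57 ± 0.16 (adjusted p = 0.00456) and lower in Otx2/Blimp1-null than in Otx2-null cells by 0.48 ± 0.16 (adjusted p = 0.0187). The last call was lost without Otx2-null PGCLC replicate 3 (adjusted p = 0.075) or Otx2/Blimp1-null PGCLC replicate 1 (adjusted p = 0.0619), and in the authors' normalized table (-0.81, adjusted p = 0.0728). Among EpiLC it was 1.85-fold lower in Otx2-null than in WT cells (log2 difference -0.89 ± 0.16, adjusted p = 0.000384) and higher in Otx2/Blimp1-null than in Otx2-null cells by 0.62 ± 0.16 (adjusted p = 0.0135). No-cytokine cells and WT PGCLC overlapped, with a difference of 0.15 (interval -0.18 to 0.49, adjusted p = 0.578).

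Stat3 encodes the transcription factor that LIF signalling activates; an array sees its RNA and not its phosphorylation. By its brightest probe the log2 signal was 7.81, 7.74 and 7.47 in Otx2/Blimp1-null PGCLC and 6.08, 5.89 and 5.77 in EpiLC of that line. In the Otx2-null line it was 8.50, 8.70 and 8.26 in PGCLC, 6.48, 6.56 and 6.85 in no-cytokine cells and 6.61, 5.38 and 5.51 in EpiLC. In WT it was 8.08, 8.55 and 8.46 in PGCLC and 6.41, 6.01 and 6.42 in EpiLC. All 9 PGCLC samples lay above all no-cytokine and EpiLC samples, and 1 Otx2-null EpiLC sample stood more than 1 unit above the other 2.

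With cytokines Stat3 was 3.62-fold higher than without, a log2 difference of 1.86 ± 0.23 (SE, limma adjusted p = 3.75e-06). It was higher in PGCLC than in EpiLC by 1.76 ± 0.23 in Otx2/Blimp1-null cells (adjusted p = 1.51e-06), 2.65 ± 0.23 in Otx2-null cells (adjusted p = 9.28e-10) and 2.08 ± 0.23 in WT cells (adjusted p = 4.74e-08). No-cytokine cells were also higher than EpiLC, by 0.79 ± 0.23 (adjusted p = 0.00455), although 1 EpiLC sample lay among them, and that call was lost in the authors' normalized table (0.11, adjusted p = 0.699). Against WT PGCLC, no-cytokine cells were lower by 1.73 ± 0.23 (adjusted p = 6.1e-06). Otx2/Blimp1-null PGCLC were lower than Otx2-null PGCLC by 0.81 ± 0.23 (adjusted p = 0.00587) and lower than WT PGCLC by 0.69 ± 0.23 (adjusted p = 0.015). The call against WT was lost without WT PGCLC replicate 2 or 3 or Otx2/Blimp1-null PGCLC replicate 3, with adjusted p of 0.0502 to 0.0663. Otx2-null and WT PGCLC overlapped, with a difference of 0.13 (interval -0.36 to 0.61).

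The change of Stat3 from EpiLC to PGCLC was smaller in Otx2/Blimp1-null than in Otx2-null cells by 0.89 ± 0.33 (adjusted p = 0.0293). That call was lost without Otx2-null EpiLC replicate 2 or 3, Otx2-null PGCLC replicate 1 or 2, Otx2/Blimp1-null EpiLC replicate 1 or Otx2/Blimp1-null PGCLC replicate 3, with adjusted p of 0.0506 to 0.0974. It was also lost with no filter (adjusted p = 0.0613) and in a fit of only those 4 groups (adjusted p = 0.0563). Otx2-null EpiLC had a difference of -0.44 from WT EpiLC that did not pass (adjusted p = 0.202). Without Otx2-null EpiLC replicate 1, the sample that stood above its group, it was -0.83 (adjusted p = 0.00352).

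The other probes of Stat3 were also higher with cytokines. Probe ILMN_2698046, detected on 17 arrays, was higher with cytokines by 1.86 (adjusted p = 7.4e-05), and ILMN_3096144, detected on 10, by 0.77 (adjusted p = 0.000846). For the lower signal of Otx2/Blimp1-null than of Otx2-null PGCLC they gave -0.36 and -0.19, and neither passed the test. Against WT PGCLC, ILMN_2698046 gave -0.26 and did not pass (adjusted p = 0.474), while ILMN_3096144 gave -0.50 and did (adjusted p = 0.0067). For the smaller change in Otx2/Blimp1-null cells they gave -0.60 and -0.06, and again neither passed. ILMN_3096144 had a difference of -0.02 between no-cytokine cells and EpiLC (adjusted p = 0.898), unlike the brightest probe. It was detected on 1 of 3 no-cytokine arrays and 0 of 3 Otx2-null EpiLC arrays, so its signal near background limits what could be seen.

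**Figure D3:**
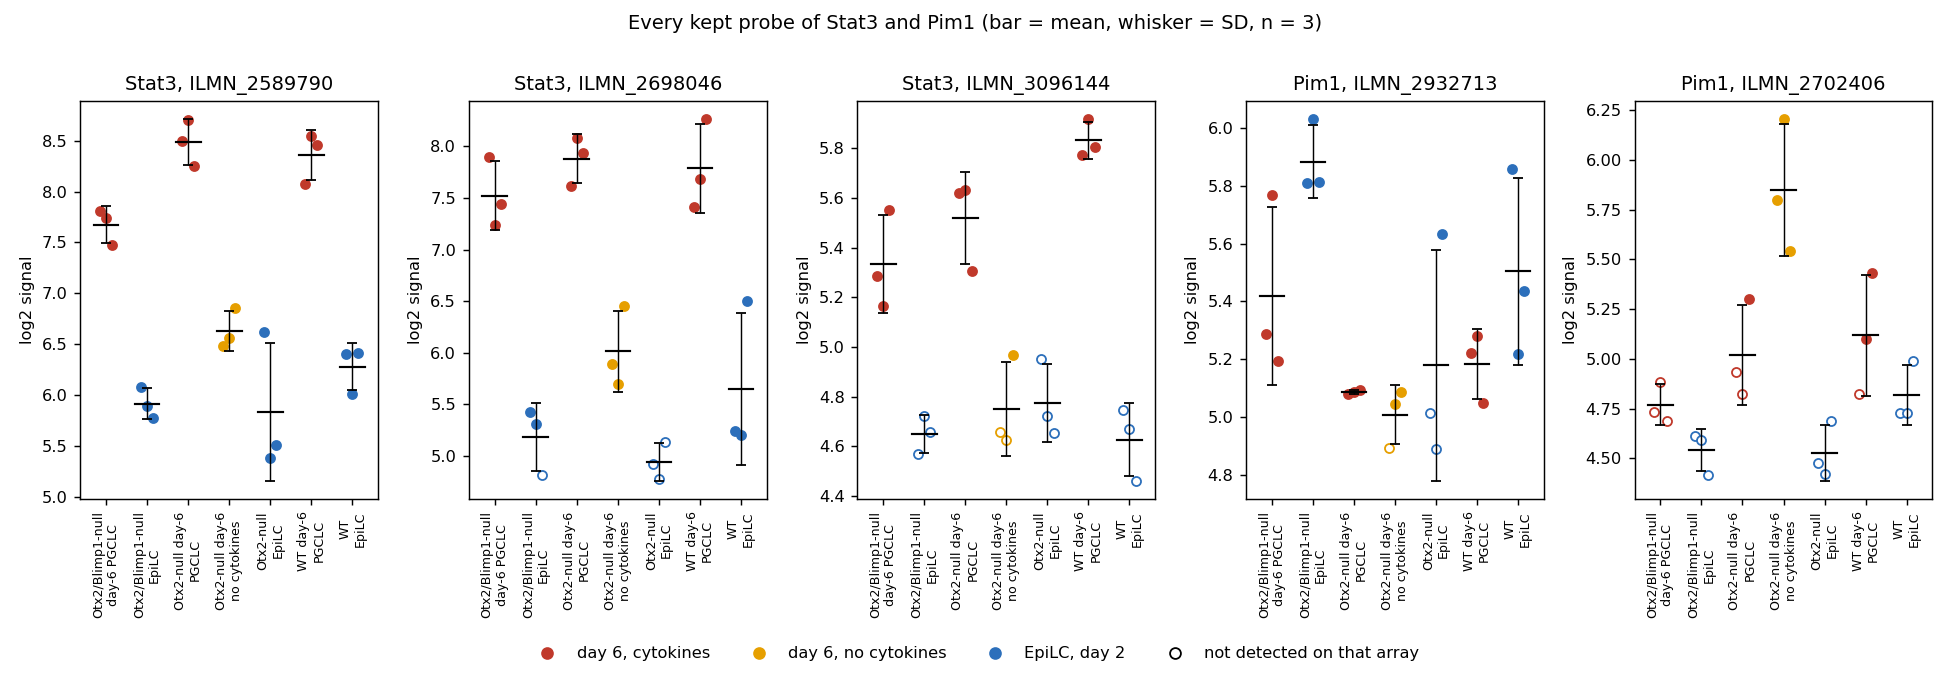
Log2 signal (vertical axis, its range set per probe) of the 3 kept probes of Stat3 and the 2 of Pim1 on all 21 arrays, by group. Points are arrays, open where the probe was not detected, bars means and whiskers the SD (n = 3); the Stat3 probes are high in the 3 PGCLC groups, while the Pim1 probes differ, the second being highest in no-cytokine cells.

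Socs3 encodes the feedback inhibitor that STAT3 induces and that binds gp130 to block JAK activity. By its 1 probe the log2 signal was 9.53, 9.52 and 9.32 in Otx2/Blimp1-null PGCLC and 5.95, 5.66 and 5.69 in EpiLC of that line. In the Otx2-null line it was 8.79, 9.25 and 9.06 in PGCLC, 6.06, 6.50 and 6.16 in no-cytokine cells and 4.92, 5.46 and 4.67 in EpiLC, where 1 of 3 arrays detected it. In WT it was 9.05, 8.90 and 8.59 in PGCLC and 5.42, 5.70 and 5.51 in EpiLC. The 9 PGCLC samples were all more than 2 units above the 12 others, and no-cytokine cells lay just above all EpiLC.

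With cytokines Socs3 was 6.94-fold higher than without, a log2 difference of 2.79 ± 0.19 (SE, interval 2.41 to 3.18, limma adjusted p = 6.45e-10), and ranked 25 among the 11649 genes ordered from the most raised. PGCLC exceeded EpiLC by 3.69 ± 0.19 in Otx2/Blimp1-null cells (adjusted p = 2e-13), 4.02 ± 0.19 in Otx2-null cells (adjusted p = 3.37e-14) and 3.30 ± 0.19 in WT cells (adjusted p = 7.73e-13). Without cytokines the rise over the same Otx2-null EpiLC was 1.22 ± 0.19 (adjusted p = 3.9e-06), and it was lost in the authors' normalized table (0.066, adjusted p = 0.737). No-cytokine cells were 6.08-fold lower than WT PGCLC (log2 difference -2.61 ± 0.19, adjusted p = 4.89e-10). Otx2/Blimp1-null PGCLC, in which Stat3 was lower than in WT PGCLC, had higher Socs3 than WT PGCLC by 0.61 ± 0.19 (adjusted p = 0.00727), a call lost without WT PGCLC replicate 3 (0.48, adjusted p = 0.0524). Against Otx2-null PGCLC the difference was 0.42 and did not pass (interval 0.04 to 0.81, adjusted p = 0.0662), though it did under 7 of the alternatives. Among EpiLC, Otx2/Blimp1-null cells exceeded Otx2-null cells by 0.75 ± 0.19 (adjusted p = 0.00984), a call lost without Otx2-null EpiLC replicate 3 or Otx2/Blimp1-null EpiLC replicate 1 and in the authors' normalized table (0.024).

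The genes whose group means followed those of Socs3 most closely over the 7 groups, among 5256 whose means varied enough, were Prss35 (Pearson r = 0.986), Tctn2 (0.984), Stac2 (0.983), Tgm2 (0.983) and Bcl3 (0.983). The points share arrays and normalization, and the correlations are descriptions. Within the 8 genes, Stat3 followed Socs3 at r = 0.94, Gbx2 at 0.79 and Pim3 at 0.77, while Jak1 ran at -0.38. For Lifr the closest gene was Dtx3l at 0.949, over means that differ by less than their spread.

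Pim1 and Pim3 encode serine/threonine kinases that act in survival and growth and are direct STAT3 targets in many cells. By its brighter probe, detected on 18 arrays, Pim1 lay between 4.89 and 6.03 in all samples, close to background. With cytokines it had 5.08, 5.09 and 5.09, against 4.89, 5.04 and 5.09 without, and did not differ past the test (0.08, interval -0.31 to 0.47, adjusted p = 0.869). The groups overlapped. The other probe, ILMN_2702406, detected on 6 arrays, gave 4.93, 4.82 and 5.30 with cytokines, against 5.80, 6.20 and 5.54 without, and was lower with cytokines by 0.83 (adjusted p = 0.00238). The 2 probes therefore disagree, and no direction is given for Pim1 here. By the brighter probe Pim1 was higher in Otx2/Blimp1-null than in Otx2-null EpiLC by 0.71 ± 0.19 (adjusted p = 0.0148), with 0.01 by the other, and lower in Otx2/Blimp1-null PGCLC than in EpiLC of that line by 0.47 ± 0.19 (adjusted p = 0.0489), with 0.23 by the other. The other probe was detected on no array of these groups, so its values say little about either call. The second of these calls held under 4 of 16 alternatives and was lost in 5 of the 6 that left out 1 array, all but the one without Otx2/Blimp1-null PGCLC replicate 2.

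Pim3, like Il6st, was high in every day-6 group, with cytokines or without. Its log2 signal was 10.9, 10.8 and 10.7 in Otx2/Blimp1-null PGCLC and 9.14, 9.24 and 9.00 in EpiLC of that line. In the Otx2-null line it was 11.0, 11.1 and 11.1 in PGCLC, 11.4, 11.2 and 10.8 in no-cytokine cells and 9.08, 9.10 and 9.22 in EpiLC. In WT it was 10.9, 10.8 and 10.9 in PGCLC and 9.39, 9.57 and 9.59 in EpiLC. All 12 day-6 samples lay above all 9 EpiLC samples by more than 1 unit, and cells with and without cytokines overlapped.

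The rise of Pim3 over EpiLC was 1.66 ± 0.14 in Otx2/Blimp1-null PGCLC (SE, adjusted p = 1.41e-09), 1.97 ± 0.14 in Otx2-null PGCLC (adjusted p = 3.73e-11), 2.02 ± 0.14 in no-cytokine cells (adjusted p = 1.95e-11) and 1.35 ± 0.14 in WT PGCLC (adjusted p = 1.61e-08). With and without cytokines it differed by -0.05, and the interval of -0.35 to 0.24 leaves out differences as large as that of Jak1 (adjusted p = 0.882). The rise was greater in Otx2-null than in WT cells by 0.61 ± 0.20 (adjusted p = 0.037), a call lost in 9 of the 12 fits that left out 1 array of those groups, all but those without WT EpiLC replicate 1, WT PGCLC replicate 3 or Otx2-null EpiLC replicate 3.

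Gbx2 encodes a homeobox transcription factor that, in mouse stem cells, is a STAT3 target able to sustain self-renewal. By its 1 probe the log2 signal was 8.81, 8.77 and 8.68 in Otx2/Blimp1-null PGCLC and 8.61, 8.36 and 8.63 in EpiLC of that line. In the Otx2-null line it was 9.90, 9.12 and 9.76 in PGCLC, 6.82, 7.11 and 7.65 in no-cytokine cells and 7.76, 7.33 and 7.90 in EpiLC. In WT it was 8.62, 8.97 and 9.07 in PGCLC and 7.48, 6.78 and 7.65 in EpiLC. Otx2-null PGCLC were the highest group, no-cytokine cells overlapped Otx2-null and WT EpiLC, and Otx2/Blimp1-null EpiLC stood above the EpiLC of both other lines.

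With cytokines Gbx2 was 5.27-fold higher than without, a log2 difference of 2.40 ± 0.24 (SE, limma adjusted p = 1.12e-07). PGCLC exceeded EpiLC by 1.93 ± 0.24 in Otx2-null cells (adjusted p = 1.64e-07) and by 1.59 ± 0.24 in WT cells (adjusted p = 2.95e-06). In Otx2/Blimp1-null cells the difference was 0.22 and did not pass (interval -0.26 to 0.71, adjusted p = 0.482), and that change was smaller than in Otx2-null cells by 1.70 ± 0.33 (adjusted p = 0.000198). Otx2/Blimp1-null EpiLC were higher than Otx2-null EpiLC by 0.87 ± 0.24 (adjusted p = 0.016), and Otx2/Blimp1-null PGCLC lower than Otx2-null PGCLC by 0.84 ± 0.24 (adjusted p = 0.00503). Both calls were lost in the authors' normalized table, with 1.56 (adjusted p = 0.0916) between EpiLC and -1.03 (adjusted p = 0.188) between PGCLC. No-cytokine cells were 3.23-fold lower than WT PGCLC (log2 difference -1.69 ± 0.24, adjusted p = 9.4e-06) and had a difference of -0.47 from Otx2-null EpiLC (interval -0.96 to 0.02, adjusted p = 0.0841). Otx2-null PGCLC were higher than WT PGCLC by 0.70 ± 0.24 (adjusted p = 0.0348), but this call was lost without WT PGCLC replicate 1 or 2 or Otx2-null PGCLC replicate 1 or 3, in the authors' normalized table (adjusted p = 0.398) and with no filter (adjusted p = 0.0726).

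**Figure D4:**
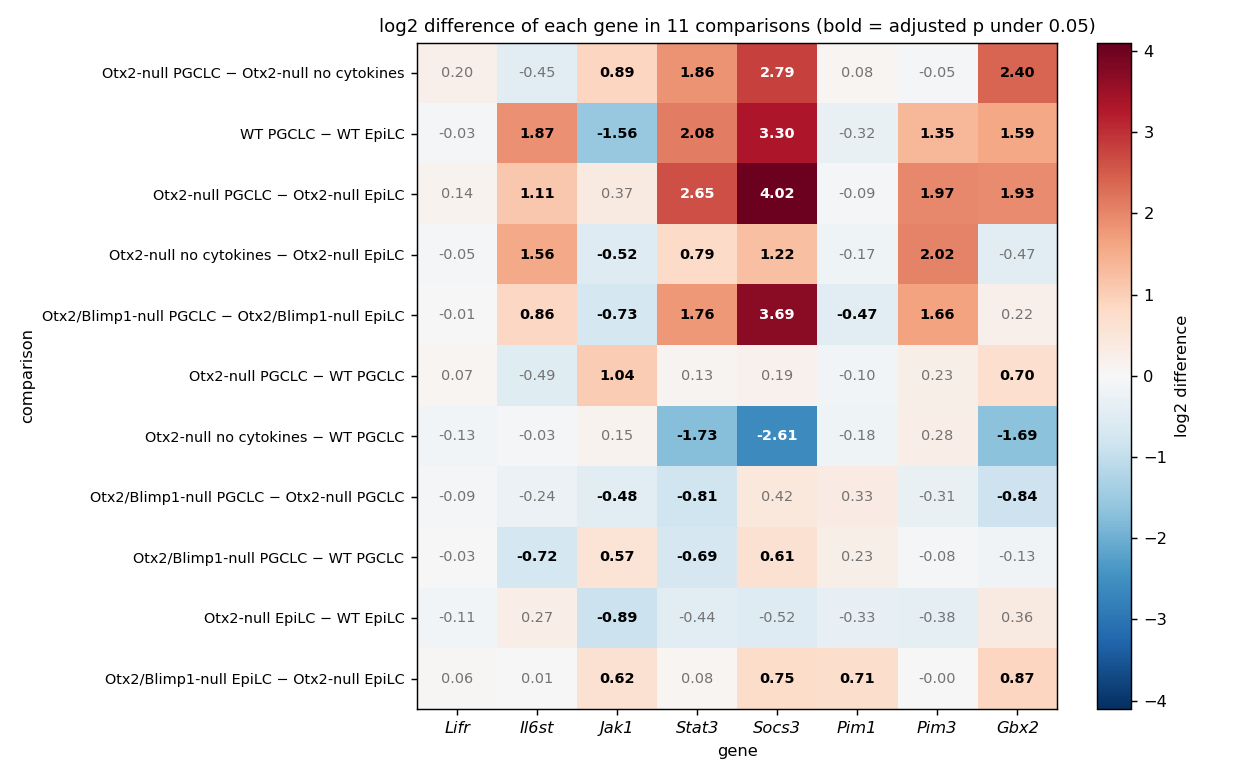
Log2 difference (colour and printed value) of the 8 genes (columns) in 11 comparisons of 2 groups (rows, each the first group minus the second). Bold values passed the test; Socs3 and Stat3 are higher in every PGCLC group than in its EpiLC and lower in no-cytokine cells than in WT PGCLC, while the sign of Jak1 varies.

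In every comparison with EpiLC, many of the 8 genes and many of all genes passed the test. From EpiLC to PGCLC, 4 were higher and 2 lower in Otx2/Blimp1-null cells, where 20.5% of all genes were higher and 22.8% lower. In Otx2-null cells 5 were higher and none lower by limma (35.8% and 29.6% of all genes), with none lower at an unadjusted p under 0.05 either. In WT cells 5 were higher and 1 lower (35.4% and 27.4%). Without cytokines 4 were higher and 1 lower than in EpiLC (35.8% and 30.2%). With only 8 genes, chosen with earlier results of these data known, these counts show neither likeness to all genes nor a difference from them.

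Among day-6 cells, Jak1, Stat3 and Gbx2 were lower in Otx2/Blimp1-null than in Otx2-null PGCLC and no gene was higher by limma (1, Socs3, at an unadjusted p under 0.05), against 28.3% of all genes lower and 20% higher. The naive stem cell marker sums were 16390 to 17620 in Otx2/Blimp1-null PGCLC and 31920 to 34420 in Otx2-null PGCLC. Of these 6 markers 3 passed the test as lower and 3 did not pass. Klf4 (8.44 against 8.25), Zfp42 (12.72 against 12.44) and Nr0b1 (5.85 against 5.59) had higher means in Otx2/Blimp1-null PGCLC. The other markers had lower means. The part of these markers in the 3 differences of Jak1, Stat3 and Gbx2 was not tested. Between Otx2/Blimp1-null and WT PGCLC 2 of the 8 genes were higher and 2 lower (22.5% and 34.2%). Jak1 and Gbx2 were higher in Otx2-null than in WT PGCLC (8.94% of all genes higher, 12.4% lower). Stat3, Socs3 and Gbx2 were lower in no-cytokine cells than in WT PGCLC (14.2% of all genes lower, 10.2% higher). Among EpiLC, Jak1, Socs3, Pim1 and Gbx2 were higher in Otx2/Blimp1-null than in Otx2-null cells (9.79% of all genes higher, 6.21% lower), and Jak1 was lower in Otx2-null than in WT cells (10.5% of all genes lower, 8.22% higher). The change from EpiLC to PGCLC was more positive for Jak1 and Pim3 in Otx2-null than in WT cells (7.97% of all genes, with 8.45% less positive). It was less positive for Jak1, Stat3 and Gbx2 in Otx2/Blimp1-null than in Otx2-null cells (28.7%, with 20.1% more positive).

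The authors had already equalized the deposited intensities, so median scaling cannot show results free of such equalization. Put in place of the quantile step here, it moved the split of calls over all genes by over 10 percentage points in 6 comparisons. Under it, 68.4% of the calls between Otx2-null PGCLC and EpiLC were higher (54.8% under quantiles), 67.2% between no-cytokine cells and EpiLC (54.3%), 19% between Otx2-null and WT EpiLC (43.9%) and 91.1% between Otx2/Blimp1-null and Otx2-null EpiLC (61.2%). For the changes it was 65.7% for Otx2-null against WT cells (48.6%) and 24.2% for Otx2/Blimp1-null against Otx2-null cells (41.2%). With the replicate number as a block Socs3 was also called between Otx2-null and WT EpiLC, lower by 0.52 in Otx2-null EpiLC (adjusted p = 0.0315, against 0.052 without the block). A fit of Otx2/Blimp1-null and Otx2-null EpiLC alone called none of the 4 genes by limma (adjusted p of 0.0581 to 0.095), although all 4 had an unadjusted p of 0.00949 or less, and the cause was not tested. Jak1 was also lost there in the authors' normalized table (0.99, adjusted p = 0.0715) and with array weights (0.53, adjusted p = 0.0705). Each of these 4 calls was also lost without 1 or more arrays, namely Otx2-null EpiLC replicate 2 (Pim1 and Gbx2) or 3 (Jak1 and Socs3) or Otx2/Blimp1-null EpiLC replicate 1 (Jak1, Socs3 and Gbx2) or 2 (Pim1).

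Of a list of 51 other pathway genes, 49 had a probe and 41 were tested. With cytokines 5 were higher and 3 lower (8.38% and 7.37% of all genes) and 33 did not pass the test, with a median of 0.06 on the log2 scale. All 5 higher genes were among the 14 tested targets, of which 1 was lower. The list was also chosen with earlier results of these data known, so its counts are descriptions. Klf4, a transcription factor of naive stem cells, averaged 8.25 with cytokines and 5.98 without, a difference of 2.27 ± 0.19 (SE, adjusted p = 8.91e-09). Bcl3, an NF-kappaB cofactor, averaged 6.40 with cytokines and 4.84 without, where 1 of 3 arrays detected it, a difference of 1.56 ± 0.14 (adjusted p = 2.31e-08). Bcl6, a transcriptional repressor, averaged 7.02 with cytokines and 5.88 without (1.15 ± 0.17, adjusted p = 3.22e-05). The remaining higher genes, Tbx3 (1.27) and Klf5 (0.92), both factors of naive stem cells, are named with their values seen.

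The 3 lower genes were Ctf1, which encodes cardiotrophin-1, a ligand that signals through the LIF receptor, at 7.11 with cytokines and 8.32 without (-1.21 ± 0.15, adjusted p = 4.4e-06), Zfp36, which encodes an RNA-binding protein that shortens the life of mRNAs (-0.59 ± 0.16, adjusted p = 0.0141), and the kinase gene Jak2 (-0.59 ± 0.17, adjusted p = 0.0217). None of the 14 inhibitor and phosphatase genes, 4 other STAT genes or 2 receptor genes tested passed the test with cytokines by limma, with 2, 1 and 0 of them at an unadjusted p under 0.05. From EpiLC to PGCLC the list had 15 higher and 5 lower in Otx2/Blimp1-null cells (20.5% and 22.8% of all genes) and 23 higher and 3 lower in Otx2-null cells (35.8% and 29.6%). It had 27 higher and 4 lower in WT cells (35.4% and 27.4%), and without cytokines 24 higher and 5 lower (35.8% and 30.2%). Otx2/Blimp1-null PGCLC had 14 of 41 lower and 3 higher than Otx2-null PGCLC (28.3% and 20% of all genes).

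**Figure D5:**
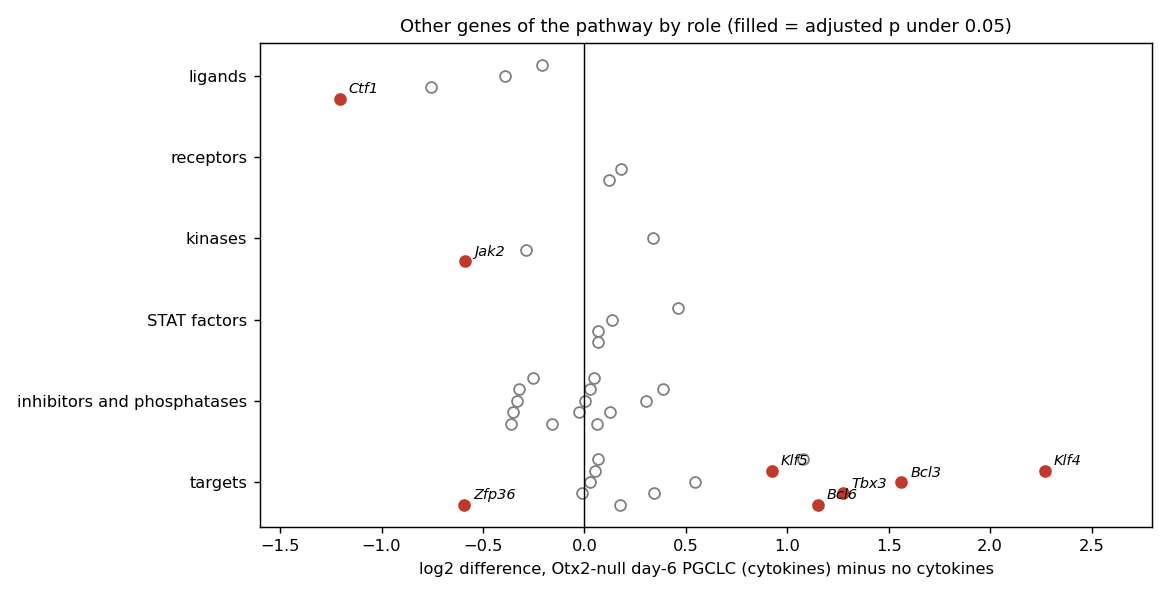
Log2 difference in signal (horizontal axis) of the 41 tested genes of the list of other pathway genes, grouped by role (rows), Otx2-null PGCLC with cytokines minus no-cytokine cells. Filled, named points passed the test; the 5 higher genes are all targets, with Klf4 at 2.27, and Ctf1, at -1.21, is the lowest.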

How the data were processed

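RNA of 21 samples in 7 groups was measured on Illumina bead arrays. The deposited intensities are named non-normalized, yet the values on all arrays share nearly 1 distribution, so the authors had equalized them. The authors' detection p-values are given per probe and array, per the file headers, and the authors' normalized table holds log2 values. The submitters' processing notes name limma, with its version not given in the sources used here. The intensities of replicate 2 of the Otx2-null PGCLC were in another row order (rank correlation with its normalized column 0.00547) and was put back by the ranks of that column; without this array Socs3, Gbx2, Stat3 and Jak1 remained higher with cytokines (2.69, 2.63, 1.75 and 0.88).

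Intensities were passed through neqc (offset 16) in limma 3.58.1 under R 4.3.3, with matplotlib 3.10.9, numpy 2.4.6 and pandas 2.3.3 under Python 3.11.15 and the R package data.table (version 1.17.8). A probe was kept if 3 or more arrays had a detection p under 0.05, and the brightest named probe stood for each of 11649 genes. Groups were fitted together (lmFit and eBayes, group only, 14 residual degrees of freedom), with two-sided p-values adjusted by Benjamini-Hochberg over all genes, threshold 0.05, and intervals of 95%. The fit was tested on simulated data. Array depth is signal over background. Alternatives were the authors' table, the background, scaling, offset and filter, every probe, array weights, the replicate block, fewer groups and leaving out each array. The 8 genes are given in every comparison; of the other pathway list, up to 3 called genes per direction with the smallest p in the cytokine comparison, and for Socs3 and Lifr the 5 genes most correlated over group means with SD of at least 0.5. Members and lists were chosen with earlier results of these data known. Same-numbered replicates of Otx2-null and WT EpiLC deviated together (r = 0.135 to 0.29 in 3 of 3 pairs), which met the rule for pairs. The fit reported did not use these pairs, so its values for this comparison are unpaired. Pairs entered only in the alternative with the replicate block.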

Additional observations from a re-analysis of the deposited data

Results flagged for a closer look

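The change from EpiLC to PGCLC differed between lines, by a limma test of the difference itself, for 5 results. Against WT cells, Otx2-null cells had a more positive change of Jak1 (1.93 on the log2 scale) and of Pim3 (0.61). Against Otx2-null cells, Otx2/Blimp1-null cells had a less positive change of Jak1 (-1.10), Stat3 (-0.89) and Gbx2 (-1.70). Both contrasts share the Otx2-null samples, so they are not independent. No formal test for outlying arrays was run within groups of 3 samples, though each array was left out in turn. Mean correlations between the arrays of a group were 0.983 to 0.992. Otx2-null EpiLC replicate 1 was pointed out for Stat3 because of its value.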

How the results depend on the processing

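The 4 genes higher with cytokines kept their direction and stayed past the test under the 16 alternatives run for that comparison. Over all comparisons and genes, 1678 results of single genes stayed on their side of the test, 77 lost and 38 gained a call, and 6 that passed the test in at least one of the fits compared turned direction; the cause was not tested. Among those that stayed on their side, 50 differences that passed in neither fit changed sign. The turned values come from other kept probes, added after seeing the data. For Pim1 they are -0.83 with against without cytokines, 0.49 for Otx2-null PGCLC and 1.32 for no-cytokine cells against EpiLC, 0.73 for no-cytokine cells against WT PGCLC and 0.23 for Otx2/Blimp1-null PGCLC against EpiLC. The value of 0.23 lies between groups in which no array detected that probe. For Stat3 the turned value is -0.024 for no-cytokine cells against EpiLC, by a probe near background in both groups. Counts of members called moved by over 1.5 times as follows. In the authors' normalized table there were 2 for no-cytokine cells against EpiLC (5 in the fit reported), 1 for Otx2-null against WT PGCLC (2), 2 for Otx2-null against WT EpiLC (1) and 1 for Otx2/Blimp1-null against Otx2-null EpiLC (4). For Otx2-null against WT PGCLC there was 1 with no filter. For Otx2-null against WT EpiLC there were 3 under median scaling and 2 with an offset of 50, with no filter, with detection required on all 3 arrays of a group, or with the replicate block. An offset of 50 gave 5 for Otx2/Blimp1-null against Otx2-null PGCLC (3), median scaling 5 for the change in Otx2/Blimp1-null against Otx2-null cells (3), and a fit of the 2 groups alone 0 for Otx2/Blimp1-null against Otx2-null EpiLC by limma, with 4 at an unadjusted p under 0.05. Leaving out 1 array gave 1 to 4 for Otx2/Blimp1-null against Otx2-null EpiLC and against WT PGCLC, 1 to 2 for Otx2-null against WT cells in PGCLC, in EpiLC and in the change between them, 2 to 3 for the change in Otx2/Blimp1-null against Otx2-null cells, and 4 to 4 with against without cytokines. Without WT PGCLC replicate 3, 1 gene was called between Otx2/Blimp1-null and WT PGCLC. The rule for pairs asked that deviations from the group means correlate over 0.1 in every same-numbered pair of a comparison. In 10 of 11 comparisons the numbers did not meet it. In 2 of 11 every sample correlated best with its own number, namely Otx2-null PGCLC against EpiLC and Otx2-null against WT EpiLC. The fit reported left both unpaired. With the block Pim1 was lost between Otx2/Blimp1-null PGCLC and EpiLC, and calls were gained for Gbx2 between no-cytokine cells and EpiLC and for Socs3 between Otx2/Blimp1-null and Otx2-null PGCLC, between Otx2-null and WT EpiLC, and in the change in Otx2-null against WT cells. Median scaling moved the median of all genes by over 0.1 in 9 comparisons, from -0.25 for the change in Otx2/Blimp1-null against Otx2-null cells to 0.21 for Otx2-null PGCLC against EpiLC. Signal near background limits Lifr, Pim1, Il6st and Socs3 in EpiLC, and the Stat3 probe ILMN_3096144 in EpiLC and no-cytokine cells.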
